A study of Homo sapiens with 6 samples.

Results

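The genes that build and load MHC class I molecules were compared between WZR6 cells and parental NCI-H1975 cells. Of the 11963 genes measured, 10 were followed, chosen by name: the heavy chains HLA-B, HLA-C, HLA-E and HLA-F, the light chain B2M, the peptide transporter subunits TAP1 and TAP2, the loading factor TAPBP, and the immunoproteasome subunits PSMB8 and PSMB9. Every probe set that the platform's annotation assigns to one of them was taken, which gave 23 of 22215 tested probe sets, and 0 of the 23 named a further gene. NCI-H1975 is an established human non-small cell lung cancer line. WZR6 is clone number 6, grown out from cells kept in stepwise higher doses of the EGFR kinase inhibitor WZ4002 and resistant to that drug; the parental cells are sensitive to it. The study placed 3 WZR6 samples and 3 parental samples on 1 array each, all from exponentially growing cultures in RPMI with bovine serum, and n = 3 per group holds for every mean below. WZR6 stands for a single clone, the labels do not say whether samples of a group came from separate cultures, and the sources used here do not state if the drug was still in the medium when cells were collected. P-values therefore measure the spread between these samples, which may be technical.

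MHC class I molecules show peptides from inside the cell to cytotoxic T cells. The proteasome cuts proteins into peptides, TAP1 and TAP2 form the pump that carries them into the endoplasmic reticulum, and TAPBP (tapasin) holds the empty molecule to the pump until a peptide fits. The molecule itself is a heavy chain paired with B2M (beta-2-microglobulin), and interferons and NF-kB are well known to raise transcription of the whole set. All these genes except B2M lie in the MHC region on the short arm of chromosome 6.

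The promoters of these genes are shown first, because 9 of the 10 genes have a window in the RefSeq set and such genes are known to share interferon and NF-kB elements. Each window runs from 250 bases before to 50 bases after a start site (build GRCh38.p14, reference sequence, not that of the cell line). The 5 printed windows are those of a classical and a non-classical heavy chain, of both pump subunits, which differed in response, and of the light chain. HLA-B lies at chr6:31357130-31357429 (minus strand), HLA-F at chr6:29723184-29723483 (plus strand), TAP1 at chr6:32853655-32853954 (minus strand), TAP2 at chr6:32838690-32838989 (minus strand) and B2M at chr15:44711267-44711566 (plus strand). Capitals mark matches on either strand to the interferon response element core (GAAA, any 2 bases, GAAA), to a shorter form of it, GAANNGAAA, and to an NF-kB-type element (GGG, any 2 bases, T, any 2 bases, CC).
HLA-B: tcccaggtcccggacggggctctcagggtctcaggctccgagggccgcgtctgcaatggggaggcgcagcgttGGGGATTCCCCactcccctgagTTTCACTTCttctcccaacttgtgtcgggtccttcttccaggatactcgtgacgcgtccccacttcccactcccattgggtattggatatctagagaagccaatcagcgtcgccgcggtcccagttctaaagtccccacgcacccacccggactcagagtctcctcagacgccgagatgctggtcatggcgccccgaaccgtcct
HLA-F: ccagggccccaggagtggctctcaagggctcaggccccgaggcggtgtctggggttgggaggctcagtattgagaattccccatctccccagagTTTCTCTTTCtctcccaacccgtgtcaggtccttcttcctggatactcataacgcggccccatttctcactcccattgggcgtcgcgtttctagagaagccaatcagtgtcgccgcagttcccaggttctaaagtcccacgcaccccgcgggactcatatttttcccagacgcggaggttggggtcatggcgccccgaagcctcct
TAP1: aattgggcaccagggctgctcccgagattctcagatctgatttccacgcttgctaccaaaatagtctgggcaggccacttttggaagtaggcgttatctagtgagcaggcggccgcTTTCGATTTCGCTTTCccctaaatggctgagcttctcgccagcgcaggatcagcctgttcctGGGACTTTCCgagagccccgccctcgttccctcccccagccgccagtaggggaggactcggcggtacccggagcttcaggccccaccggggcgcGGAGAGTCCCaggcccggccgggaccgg
TAP2: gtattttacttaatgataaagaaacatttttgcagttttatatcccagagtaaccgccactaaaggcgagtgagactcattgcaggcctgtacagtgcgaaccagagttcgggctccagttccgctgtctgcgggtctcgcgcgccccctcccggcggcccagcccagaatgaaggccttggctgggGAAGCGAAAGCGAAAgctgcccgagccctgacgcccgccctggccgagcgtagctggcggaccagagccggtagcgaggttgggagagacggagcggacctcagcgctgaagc
B2M: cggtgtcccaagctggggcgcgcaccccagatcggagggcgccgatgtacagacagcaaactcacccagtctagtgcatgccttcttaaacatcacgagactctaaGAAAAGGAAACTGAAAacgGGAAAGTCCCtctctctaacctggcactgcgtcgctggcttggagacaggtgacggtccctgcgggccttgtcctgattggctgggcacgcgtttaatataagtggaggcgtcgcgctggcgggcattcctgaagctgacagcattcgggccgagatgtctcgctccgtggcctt
The longer core was found in the windows of 6 of 9 genes, HLA-F, B2M, TAP1, TAP2, TAPBP and PSMB8. Counted by window, that was 6 of the 11 windows of the 9 genes, against 3.57% of all 35116 windows. HLA-B and HLA-C held the shorter form, which occurs in 7.66% of all windows, so that 8 of 9 genes held one form or the other. Counted by window, that was 8 of the 11, against 10.6% of all windows. Matches to the NF-kB-type letters stood in windows of HLA-B, HLA-C, B2M, TAP1 and TAPBP, 5 of the 11, and in 22% of all windows. Matches overlap in places, such as a pair shifted by 1 base in HLA-B. Both TAP1 and TAP2 carry the longer core. The letters searched were chosen with these windows in view, and a match is a description of sequence, not a bound site.

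All 10 genes were higher in WZR6 on their brightest probe set, and none was lower on any probe set that passed the test. Of 23 probe sets, 19 were called higher and 0 lower by limma at an adjusted p under 0.05, against a background of 21.6% of all probe sets called higher; 4 were not called. All 3 WZR6 values lay above all 3 parental values for 20 of the 23, against 27.5% of all probe sets. Counted by gene on the brightest probe set, 10 of 10 were called higher, against 24.5% of 11963 genes called higher and 48.0% called either way. A called rise of at least 1 on the log2 scale was seen for 5 of the 23 probe sets and for 1.14% of all probe sets. The genes fell into 6 with differences of 0.70 to 1.11 on the log2 scale (the 4 heavy chains, TAP1 and TAPBP) and 4 with differences of 0.16 to 0.33 (B2M, TAP2, PSMB8 and PSMB9). A called rise of at least 0.5 was seen in 7.41% of all genes. Levels below are log2 intensities, whose median over all tested values was 7.38 with quartiles at 5.27 and 9.61, and differences are log2 of WZR6 minus parental.

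**Figure D1:**
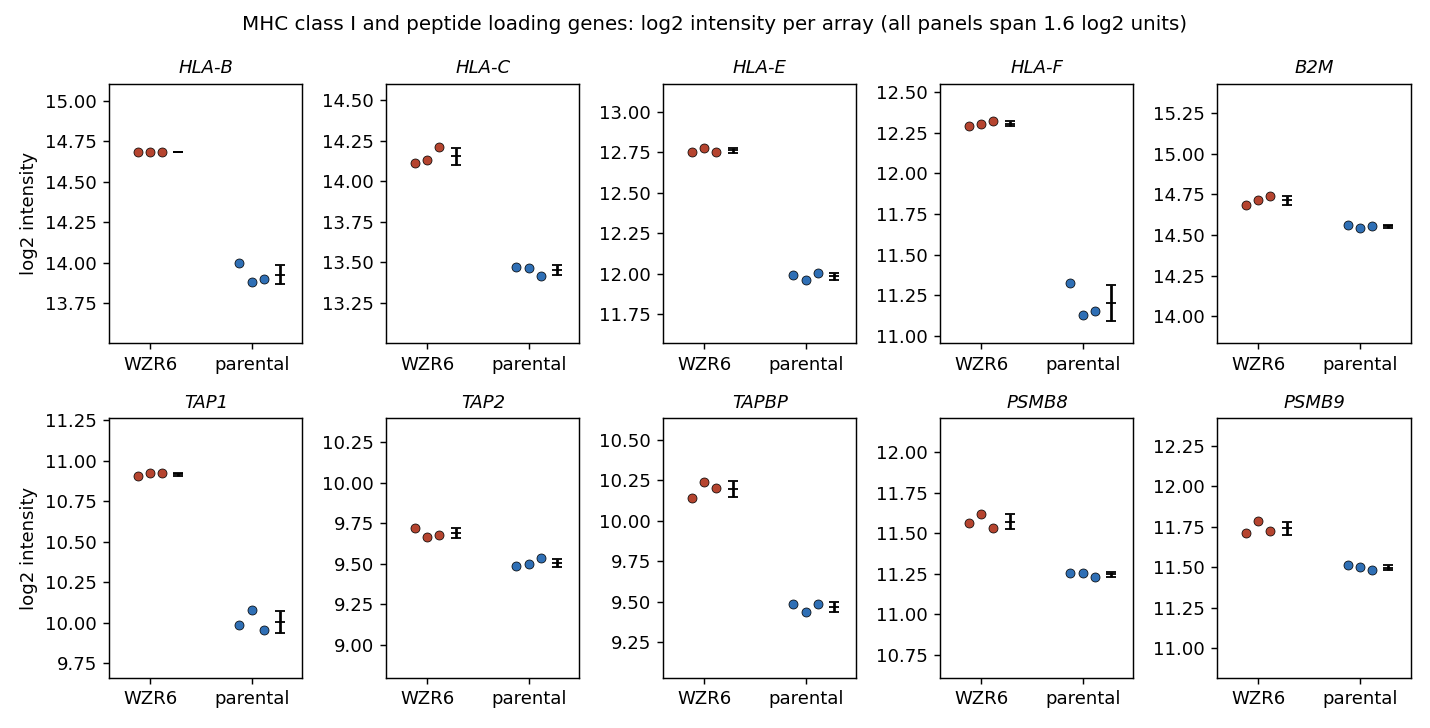
Log2 intensity of the brightest probe set of each of the 10 genes, per array; points are arrays, and the bar beside them is the mean with its SD (n = 3). Every panel spans the same number of log2 units at its own level. WZR6 points lie above parental points in all panels, with wide gaps for the heavy chains, TAP1 and TAPBP and narrow ones for B2M, TAP2, PSMB8 and PSMB9.

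The classical heavy chains HLA-B and HLA-C, which present peptides to cytotoxic T cells, had probe sets near the top of the intensity range and were higher in WZR6 on all their probe sets. The brightest HLA-B probe set, 209140_x_at, read 14.68, 14.68 and 14.68 in WZR6 samples, against 14.00, 13.88 and 13.90 in parental samples. The groups did not overlap, and the difference of 0.76 ± 0.05 (SE) is a fold of 1.69 (95% interval 1.55 to 1.83, adjusted p = 4.16e-05 in limma). Its other probe sets, 208729_x_at and 211911_x_at, differed by more, 1.00 ± 0.07 and 1.07 ± 0.07, at lower parental means of 12.48 and 12.43. In deposited intensities, the brightest set stood at 26276 to 26339 in WZR6 samples and 15101 to 16352 in parental samples, where the highest value in the table was 44567. HLA-C on 208812_x_at read 14.11, 14.13 and 14.21 in WZR6 samples, against 13.47, 13.47 and 13.42 in parental samples. That is a 1.63-fold rise (1.5 to 1.77, adjusted p = 5.76e-05 in limma), and the 4 HLA-C probe sets ranged narrowly from 0.70 to 0.86.

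HLA-E and HLA-F are non-classical heavy chains of low variability. HLA-E presents leader peptides of other class I chains to the NK cell receptor NKG2A. Its probe set 200904_at read 10.37, 10.43 and 10.33 in WZR6 samples, against 8.94, 8.97 and 8.98 in parental samples. This was the largest difference among the 23 probe sets, 1.41 ± 0.05 or 2.66-fold (2.46 to 2.89, adjusted p = 2.52e-06 in limma). The brighter HLA-E sets, 200905_x_at and 217456_x_at, differed by 0.77 ± 0.04 and 0.71 ± 0.06, and their 95% intervals of 0.67 to 0.88 and 0.58 to 0.84 did not reach that of 200904_at, 1.30 to 1.53. HLA-F on 221978_at read 8.40, 8.54 and 8.51 in WZR6 samples, against 7.04, 7.14 and 7.27 in parental samples. It rose 2.52-fold there (2.23 to 2.84, adjusted p = 1.86e-05 in limma) and 2.15-fold and 2.1-fold on 221875_x_at and 204806_x_at, whose intervals overlap with it. Probe sets of the type _x_at hold probes that can also match other transcripts. They make up 11 of the 13 heavy chain sets, and since class I chains are close copies of each other their values cannot be assigned to 1 gene with certainty. The 11 differed by 0.70 to 1.11. All of HLA-B and HLA-C rests on such sets, while HLA-E and HLA-F each have 1 plain _at set.

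**Figure D2:**
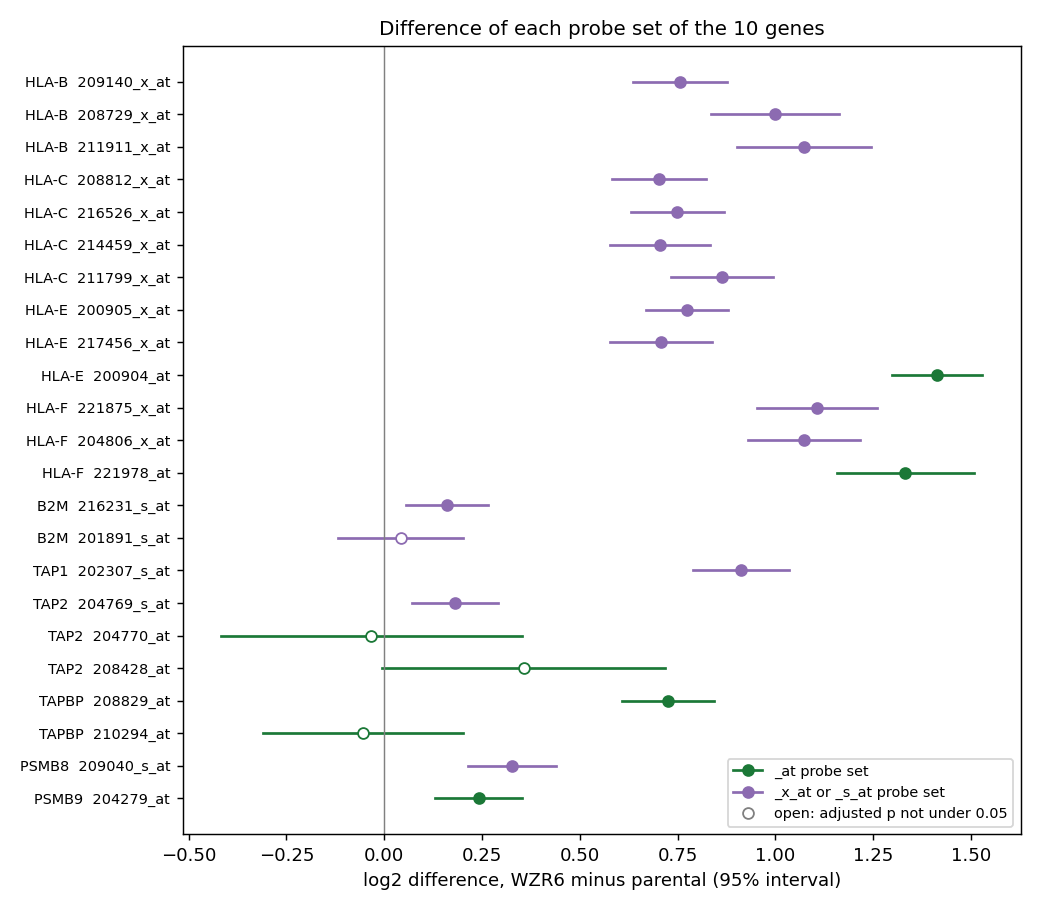
Log2 difference (WZR6 minus parental) of each of the 23 probe sets, with its 95% interval; filled points passed an adjusted p under 0.05, and colour separates plain _at sets from the _x_at and _s_at sets that can match several transcripts. The 13 heavy chain sets lie at 0.70 to 1.41, and the plain HLA-E set lies apart from the other HLA-E sets.

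B2M, the light chain that most class I heavy chains need to reach the surface, rose less than the heavy chains on its called probe set and was not called on the other. On 216231_s_at it read 14.69, 14.71 and 14.74 in WZR6 samples, against 14.56, 14.54 and 14.55 in parental samples. The groups were separate, but the difference was only 0.16 ± 0.04, or 1.12-fold (1.04 to 1.2, adjusted p = 0.0247 in limma), with a 95% interval of 0.06 to 0.27 that lies below those of all 13 heavy chain sets. The other set, 201891_s_at, read 14.55, 14.54 and 14.71 in WZR6 samples, against 14.51, 14.52 and 14.64 in parental samples, and the groups overlapped (difference 0.04 ± 0.07, adjusted p = 0.666 in limma). In deposited intensities, the B2M sets stood at 23345 to 25546 already in parental samples, against 15101 to 16352 for the brightest HLA-B set. Whether a difference is read in full at that level was not tested. With its sets averaged B2M was not called (0.10, adjusted p = 0.128 in limma). In the probe set fit, 216231_s_at was not called when any 1 of the 6 arrays was left out, with limma adjusted p-values of 0.0529 to 0.0730. The gene fit, over fewer features, kept the call of the same set in each of these cases. Within arrays, the log2 ratio of HLA-B to B2M was -0.03 ± 0.03 (SD) in WZR6 samples and -0.63 ± 0.05 in parental samples. The ratios of HLA-C, HLA-E and HLA-F to B2M were higher in WZR6 by 0.54, 0.61 and 0.95. An exact two-sided permutation test of each ratio gave p = 0.10, the smallest value that 3 samples against 3 allow (0.129 after adjustment over 9 ratios).

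The 2 subunits of the peptide pump rose by different amounts. TAP1 on its single probe set read 10.91, 10.92 and 10.92 in WZR6 samples, against 9.98, 10.08 and 9.95 in parental samples. It rose 1.88-fold (1.73 to 2.05, adjusted p = 2.09e-05 in limma), with no overlap. TAP2 on 204769_s_at read 9.72, 9.66 and 9.68 in WZR6 samples, against 9.49, 9.5 and 9.53 in parental samples, a rise of 1.13-fold (1.05 to 1.22, adjusted p = 0.0174 in limma). Its other sets were dim and not called. The groups overlapped on 204770_at (6.38 ± 0.12 SD in WZR6 samples, 6.41 ± 0.34 in parental samples). On 208428_at the difference was 0.36 ± 0.15 (SE, adjusted p = 0.109 in limma), with both means, 4.71 in WZR6 samples and 4.36 in parental samples, below the lower quartile of the arrays. In the probe set fit the TAP2 call on 204769_s_at ended without WZR6 replicate 1, parental replicate 1 or parental replicate 2, with limma adjusted p-values of 0.0512 to 0.0668. The gene fit kept it in these cases, but with its sets averaged TAP2 was not called (0.17, adjusted p = 0.181 in limma). The 95% intervals of the differences, 0.79 to 1.03 for TAP1 and 0.07 to 0.29 for TAP2, did not meet. The log2 ratio of TAP1 to TAP2 within arrays ran from 1.19 to 1.26 in WZR6 samples and from 0.42 to 0.58 in parental samples, a difference of 0.73 (exact permutation p = 0.10, the smallest possible).

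TAPBP was higher on its brighter probe set. On 208829_at it read 10.14, 10.24 and 10.20 in WZR6 samples, against 9.49, 9.43 and 9.48 in parental samples, or 1.65-fold higher (1.52 to 1.79, adjusted p = 4.63e-05 in limma). Its dim second set, 210294_at, had means of 6.19 ± 0.22 (SD) in WZR6 samples and 6.25 ± 0.06 in parental samples, and was not called. With both sets averaged the difference was 0.34 (adjusted p = 0.00210 in limma), below the 0.70 to 1.11 of the larger rises, and 0.20 relative to neighbours (adjusted p = 0.0291). PSMB8 and PSMB9 encode catalytic subunits that replace PSMB5 and PSMB6 in the immunoproteasome. PSMB8 read 11.56, 11.62 and 11.53 in WZR6 samples, against 11.25, 11.25 and 11.23 in parental samples. PSMB9 read 11.71, 11.78 and 11.72 in WZR6 samples, against 11.51, 11.5 and 11.48 in parental samples. Both rises were small, 1.25-fold (1.16 to 1.36) and 1.18-fold (1.10 to 1.28), with adjusted p-values of 0.00136 and 0.00516 in limma, and the groups were separate.

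The constitutive partners of PSMB8 and PSMB9 rose as well, and the ratios of inducible to constitutive subunits overlapped between the groups. PSMB5 differed by 0.27 ± 0.04 and PSMB6 by 0.22 ± 0.04 (adjusted p = 0.0020 and 0.00433 in limma). The within-array log2 ratio of PSMB8 to PSMB5 differed by 0.06 and that of PSMB9 to PSMB6 by 0.02, with overlapping groups (exact permutation p = 0.20 and 0.60). PSMB10, the remaining inducible subunit and encoded outside the MHC, fell instead, to 9.34 ± 0.05 (SD) in WZR6 samples, against 9.76 ± 0.04 in parental samples. Its partner PSMB7 was higher by 0.26, so that the ratio of PSMB10 to PSMB7 dropped by 0.68 (exact permutation p = 0.10). PSMB10 thus moved opposite to PSMB8 and PSMB9.

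Many chromosomal neighbours of the 9 genes on chromosome 6 were also higher, within the MHC stretch and beyond its TAPBP end. Between HLA-F and TAPBP, the first and the last of the 9 genes along chromosome 6, the arrays measured 84 other genes once HLA, class II and class I-like genes were left out. Of these, 46 were called higher, 0 lower and 38 not, against 24.5% and 23.5% of all genes called higher and lower. Their median difference was 0.21, against 0.02 for all genes. With the left-out HLA, class II and class I-like genes counted too, 50 of 102 were higher and 6 lower, so the 0 lower depends on leaving them out. Of the 673 measured genes of the whole chromosome, 293 were higher and 72 lower (43.5% higher, median 0.14). In the 50 genes beyond TAPBP 30 were higher (60%) and 5 lower, against 54.8% higher among the 84. In the 50 before HLA-F 16 were higher (32%) and 6 lower, and in the 100 before it 26 were higher and 18 lower. A high share thus continued beyond TAPBP, and the share was smaller before HLA-F. The 50 neighbours of B2M on chromosome 15 held 11 higher and 9 lower genes. The 84 genes between HLA-F and TAPBP were also split by level. At or above the median of the arrays lay 46 of them, of which 41 were higher (median 0.42), whereas 35.3% of all genes at that level were called higher. Below it lay 38, of which only 5 were called. In a list of genes of the region outside presentation, 35 of 52 measured members were higher and 0 lower (median 0.33). DAXX, a chromatin protein, rose 1.96-fold, the cytokines TNF and LTB 1.94-fold and 1.83-fold, and the GABA receptor subunit GABBR1 1.65-fold. With a floor at the median of the arrays the TNF call ended and the GABBR1 rise was 1.27-fold.

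**Figure D3:**
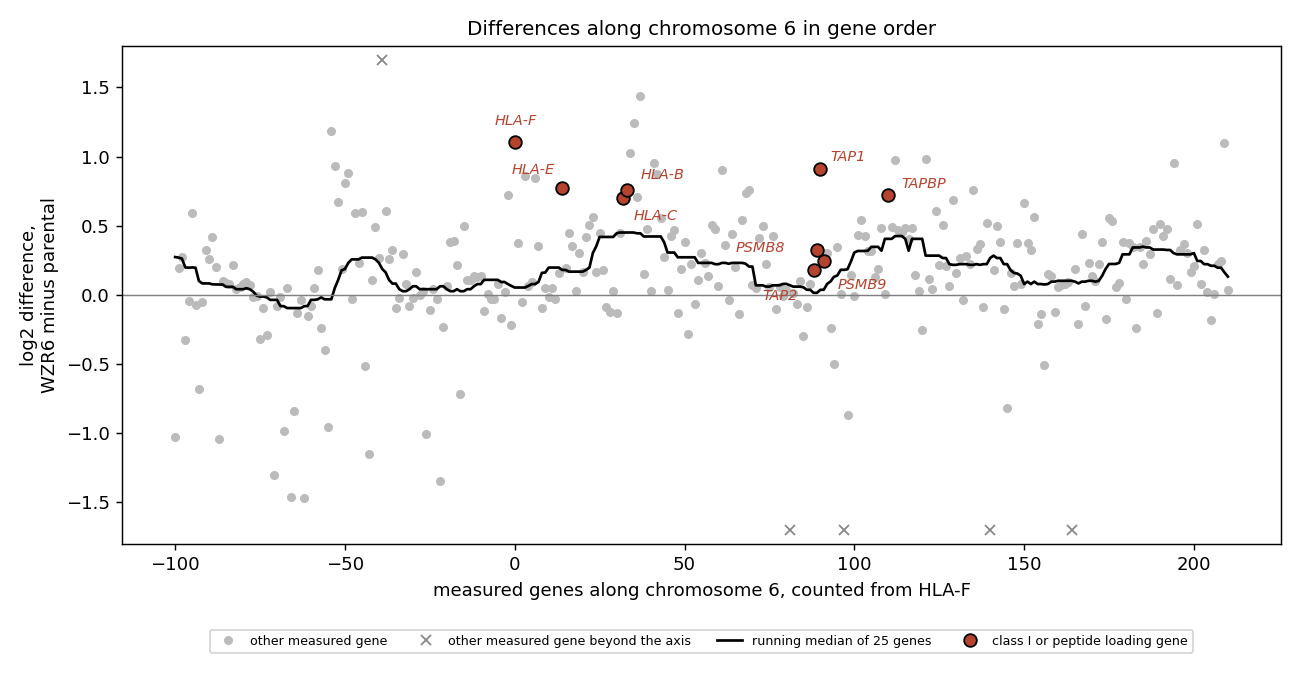
Log2 difference (WZR6 minus parental) of measured genes along chromosome 6, by their order counted from HLA-F; red points are the class I and peptide loading genes, grey points other genes, crosses genes beyond the axis, and the line is the running median of 25 genes, red points included. HLA-C and HLA-B lie where the line reaches 0.45, TAP2, PSMB8, TAP1 and PSMB9 are 4 adjacent measured genes, and TAP1 stands above its adjacent genes.

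Each gene was therefore also set against the mean of its 25 measured neighbours on each side, with none of the 10 genes counted as a neighbour, in a fit over all 11954 placed genes. On that scale 9 of 10 were called higher in WZR6, 0 were lower and TAP2 was not called, against a background of 27.6% called higher, 20.9% lower and 48.5% either way. The neighbour sets of TAP1, TAP2, PSMB8, PSMB9 and TAPBP each held 13 class II HLA genes, 6 of them called lower, which pull the mean of these neighbours down. HLA-F lay 0.98 ± 0.06 (SE) above its neighbours' change, TAP1 0.81 ± 0.05, TAPBP 0.61 ± 0.05, HLA-E 0.51 ± 0.04, HLA-B 0.45 ± 0.05 and HLA-C 0.39 ± 0.05. PSMB8 lay 0.23 ± 0.04 and PSMB9 0.14 ± 0.04 above theirs. B2M on chromosome 15, whose neighbours had a median difference of 0.04, lay 0.21 ± 0.05 above them. With no HLA gene counted as a neighbour, a setting chosen after the data were seen, 7 of 10 were called higher and 0 lower. TAP1 then stood at 0.61, TAPBP at 0.42, PSMB8 at 0.02, PSMB9 at -0.06 and TAP2 at -0.12, and the last 3 were not called (adjusted p = 0.708, 0.289 and 0.0830 in limma). With 10 neighbours on each side, 13 of the 20 around TAP1, TAP2, PSMB8 and PSMB9 were class II HLA genes, and the values were 1.19, 0.46, 0.60 and 0.52. PSMB9 was not called relative to its neighbours in 8 of 19 alternatives in all, 5 of them leaving out an array, and B2M in 1, the average of its sets. With dim probe sets left out, PSMB9 was called lower instead (-0.20).

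The sign for TAP2, PSMB8 and PSMB9 also depended on which neighbours were kept. The stretch holds many dim genes, and when probe sets below the median level were left out, 43 of the 50 neighbours of HLA-B and 44 of the 50 of TAP1 were higher, with medians of 0.42 and 0.44. This filter did not change brightness alone. Neighbours of TAP1 called lower numbered 6 of 50 before it and 3 of 50 after it. Without HLA genes as neighbours TAP2 and PSMB9 were already negative (-0.12 and -0.06, not called). Against these brighter neighbours 7 genes were higher (background 36.9%) and 3 lower (background 30.0%). HLA-F stood 0.76 ± 0.06 above them, TAP1 0.47 ± 0.04, TAPBP 0.45 ± 0.04, HLA-B 0.33 ± 0.04, HLA-E 0.32 ± 0.04 and HLA-C 0.28 ± 0.04, while B2M stood 0.15 ± 0.04 above those of chromosome 15. TAP2 fell behind by 0.26 ± 0.04, PSMB9 by 0.20 ± 0.04 and PSMB8 by 0.11 ± 0.04 (adjusted p = 0.000478, 0.00138 and 0.0219 in limma). The small rises of TAP2, PSMB8 and PSMB9 were thus below those of brighter neighbours, and the larger rises of the heavy chains, TAP1 and TAPBP above them.

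**Figure D4:**
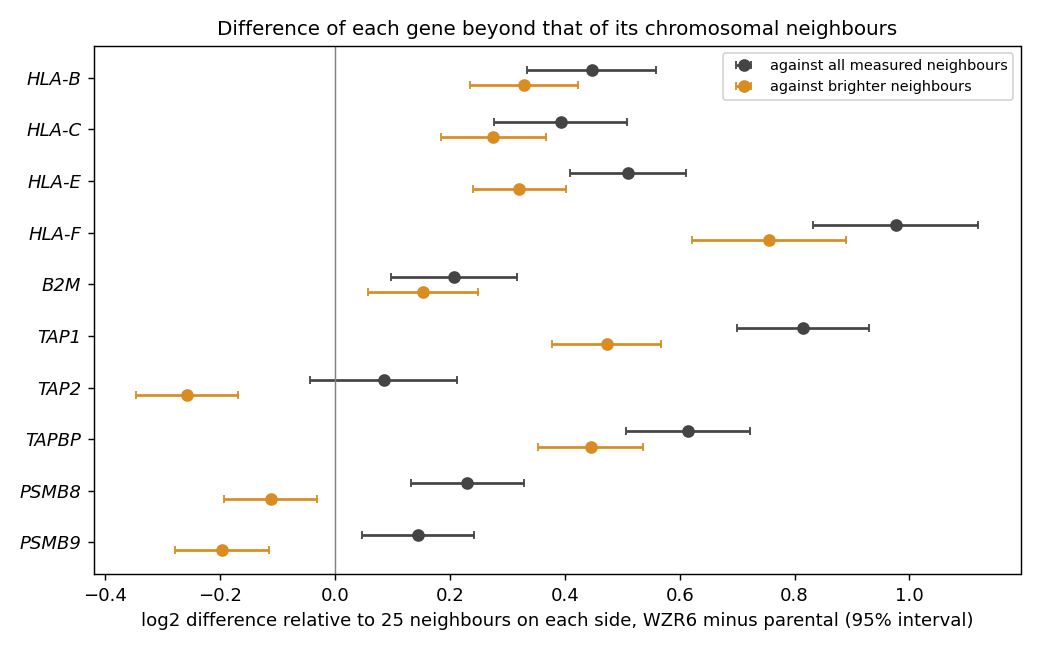
Log2 difference (WZR6 minus parental) of each gene relative to the mean of 25 measured neighbours on each side, with its 95% interval, against all measured neighbours (dark) and against neighbours left after dim probe sets were removed (orange). The heavy chains, TAP1, TAPBP and B2M lie above 0 in both, whereas TAP2, PSMB8 and PSMB9 lie below 0 against brighter neighbours.

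Other class I and class I-like genes were higher for 8 of 12 measured members and lower for 2 (median 0.46), where 24.5% of all genes were called higher and 23.5% lower. MICB and MICA, stress ligands of the NK cell receptor NKG2D encoded beside HLA-B, rose 2.71-fold (2.46 to 2.97) and 2.03-fold (1.83 to 2.27). MICB read 10.39, 10.26 and 10.44 in WZR6 samples, against 8.93, 8.91 and 8.95 in parental samples. HLA-G and the pseudogene HLA-J rose 1.81-fold and 1.8-fold on _x_at sets, with the same uncertainty as HLA-B.

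Factors that trim and fold peptides and chains held 4 of 12 called higher, 5 lower and 3 not called (median 0.01), against 24.5% and 23.5% of all genes called higher and lower. The trimming peptidase ERAP2 fell to 10.29 ± 0.03 (SD) in WZR6 samples, against 11.04 ± 0.07 in parental samples, or 1.68-fold. ERAP1, which trims peptides beside it, fell 1.42-fold, but its 5 probe sets ranged from -0.51 to 0.36 the call was lost when they were averaged, and the sign turned on plain _at sets alone (0.14). TPP2, a cytosolic peptidase, fell 1.31-fold. PDIA3 (ERp57), which joins TAPBP in the loading complex, rose 1.40-fold and the chaperone CALR 1.16-fold, while CANX differed by -0.04 ± 0.04 (SE) and the tapasin homologue TAPBPL by 0.08 ± 0.07. In the list of the inducible proteasome and its activators, the activator PSME3 fell 1.48-fold and PSMB10 1.34-fold, and the assembly factor POMP and activator PSME1 rose 1.19-fold and 1.17-fold. Constitutive core subunits were higher for 10 of 13, led by PSMB2 and PSMA1 at 1.38-fold and 1.28-fold, and lower for PSMA2 and PSMB3, at 1.41-fold and 1.24-fold.

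Transcription factors of class I promoters were higher for 7 of 13 measured genes and lower for 0 (median 0.18), against 24.5% and 23.5% of all genes. The count of higher genes was 4 without parental replicate 2 or parental replicate 3. These counts take the brightest probe set of each gene. Among all their sets, CREB1 was called lower on 3 of 4 and NFYA on 1 of 4, and neither was called higher on any. RFX5, a subunit of the complex that binds the X box of class I and class II promoters, rose 1.46-fold, although its second set differed by 0.08. NFKB1 also rose 1.46-fold, RELA 1.21-fold and the CCAAT-binding subunit NFYC 1.19-fold. IRF1, an interferon-induced activator of these promoters, differed by 0.18 ± 0.06 (SE, adjusted p = 0.0460 in limma), and this call ended under cyclic loess, with a floor at the median, on plain _at sets alone and without 5 of the 6 arrays in turn. Interferon receptors and signal carriers were higher for 8 of 14 and lower for 2 (median 0.23), against 24.5% and 23.5% of all genes. The receptor chains IFNAR1 and IFNAR2 rose 2.03-fold and 1.78-fold, while the factors IRF7 and IRF9 fell 2.22-fold and 1.95-fold. With the floor the IFNAR1 rise was 1.33-fold, the IFNAR2 rise stayed at 1.78-fold and the IRF7 call ended.

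Interferon-response transcripts moved in both directions. Of 29 measured genes 9 were higher and 16 lower (median -0.24), against 24.5% and 23.5% of all genes; no test of a difference from the class I genes was made. IFITM1 and IFI27 fell 18.6-fold and 13.2-fold and OAS1 3.97-fold, the OAS1 fall being 1.42-fold with the floor. The chemokine CXCL10 rose 5.31-fold. Its parental mean of 4.86 was below the lower quartile, and the floor ended this call. Brighter genes also rose: the guanylate-binding proteins GBP1 and GBP2, which act in defence against pathogens inside cells, by 2.32-fold and 2.17-fold, and the oligoadenylate synthetase-like gene OASL by 1.92-fold. On the other side, TRIM22 and MX1 were called lower, with differences of -1.42 and -1.40. GBP1, GBP2, OASL, TRIM22 and MX1 were named after their values were seen. Class II presentation genes were higher for 0 of 13 and lower for 8 (median -0.30, background 24.5% and 23.5%), although 10 of them lie on chromosome 6. HLA-DPA1 read 4.74, 5.25 and 4.95 in WZR6 samples, against 8.0, 7.95 and 8.16 in parental samples, or 8.31-fold lower. All WZR6 values were at or below the lower quartile, where the size of a fold is uncertain, and with the floor the fall was 1.58-fold. The invariant chain CD74 fell 7.73-fold (2.68-fold with the floor), HLA-DRA 3.67-fold and the class II protease CTSS 2.43-fold (1.75-fold with the floor). The HLA-DRA call ended with the floor.

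**Figure D5:**
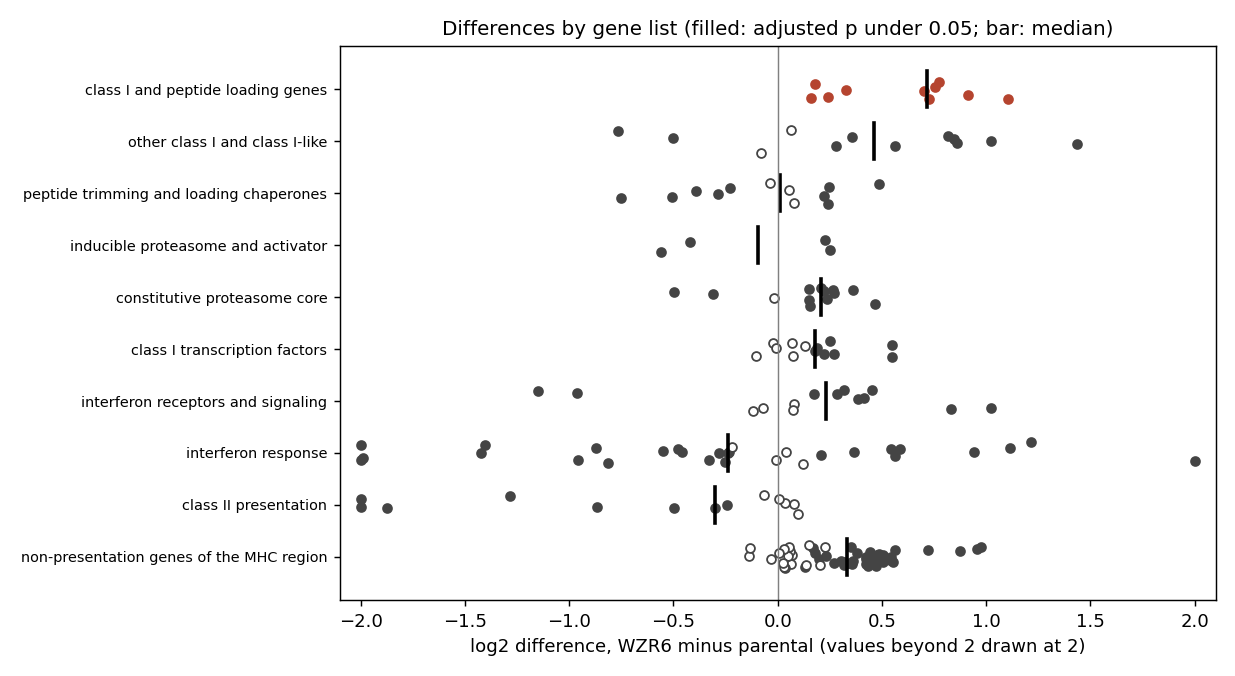
Log2 difference (WZR6 minus parental) of measured genes by list, with values beyond 2 drawn at 2; filled points passed an adjusted p under 0.05, and bars are medians. The 10 class I and peptide loading genes (red) lie above 0 around a median of 0.71, while the medians of class II presentation and interferon response lie at -0.30 and -0.24.

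The arrays of a group were alike (r across probe sets of 0.9978 to 0.9983 within groups and 0.9815 to 0.9826 between them), and 0 arrays were identical to another. Epithelial markers were lower in WZR6 for 7 of 8 and higher for 0, where 24.5% of all genes were called higher and 23.5% lower. EPCAM, CDH1, MUC1 and NKX2-1 fell by 76.8-fold, 51.7-fold, 5.22-fold and 4.40-fold. KRT18 read 14.02 in WZR6 samples and 14.14 in parental samples and was not called. EPCAM and CDH1 averaged 6.17 and 6.32 in WZR6 samples, below the median of the arrays. With the floor, EPCAM, CDH1 and NKX2-1 fell 33.2-fold, 24.8-fold and 2.29-fold. With probe sets averaged, CDH1, MUC1 and NKX2-1 fell 10.3-fold, 3.84-fold and 2.24-fold, and 1 of the 2 NKX2-1 sets was called. The part of these markers in the class I result was not tested. Leukocyte markers were higher for 0 of 11 and lower for 2, against the same 24.5% and 23.5% of all genes. For 5 of the 11 both means lay below the lower quartile, which limits what these calls can show. Their summed intensity was 499 to 550 in WZR6 samples and 765 to 801 in parental samples. ITGB2 and CD14 fell 2.58-fold and 1.94-fold, the ITGB2 call ending with the floor, and the pan-leukocyte gene PTPRC had means of 4.17 in WZR6 samples and 4.20 in parental samples, both below the lower quartile. Fibroblast and endothelial markers were higher for 2 of 10 and lower for 2, against 24.5% and 23.5% of all genes. Their sums were 1513 to 1538 in WZR6 samples and 2405 to 2601 in parental samples. COL1A1 fell 8.01-fold (2.05-fold with its 4 probe sets averaged, of which 2 were called lower) and COL1A2 1.47-fold, CDH5 and PDGFRB rose 1.85-fold and 1.58-fold, and both rises ended with the floor. In bulk samples, fewer cells of a type and less RNA per cell cannot be told apart.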

How the data were processed

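Human gene expression was measured on 6 one-colour oligonucleotide arrays. The authors deposited 1 linear intensity per probe set for each array. Per the submitters' processing notes these came from RMA, whose version is not stated in the sources used here. There were no detection calls to use. The deposited values were converted to log2 without a pseudocount or further normalization. Of 22277 probe sets, 62 controls were left out. The annotation named 1 gene for 19064, several for 1043 and none for 2108; 19052 were matched to RefSeq (GRCh38.p14), which gave gene order only. Each gene was represented by the brightest probe set naming it alone. WZR6 and parental groups, taken from sample titles, were compared with limma 3.58.1 in R 4.3.3 (lmFit, eBayes, two-sided, Benjamini-Hochberg over all features, calls at an adjusted p under 0.05), over 22215 probe sets, 11963 genes, and 11954 genes relative to 25 neighbours on each side. P-values in the account of the 10 genes are from the probe set fit, those of other genes from the gene fit, and those relative to neighbours from that fit. The fits were tested on simulated data. Motifs were searched in RefSeq promoter windows. Figures used matplotlib 3.10.9 in Python 3.11.15.

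Named were the 10 genes, further factors chosen by role where measured, and up to 4 called members with the largest difference in each list. KRT18, PTPRC, GBP1, GBP2, OASL, TRIM22, MX1, CREB1 and NFYA were added after their values were seen. The members and lists were chosen with earlier results of these data known. Correlations of deviations between same-numbered samples were -0.01, 0.12 and 0.23, so the numbers were not taken to pair samples. The number of arrays limits precision. Alternatives were other scalings, filters, a floor at the median, a variance trend, the replicate number as a block, other choices of probe set or neighbours, and leaving out each array; leaving HLA genes out of the neighbours was added after seeing the data.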

Additional observations from a re-analysis of the deposited data

How the results depend on the processing

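For the 10 genes, direction and call held in 152 gene-level results under the alternatives, with 2 calls lost and 1 sign turned, and in 286 probe set results, with 9 calls lost and 1 gained. Relative to neighbours it held in 171 results, with 9 calls lost, 1 gained and 4 signs turned. Leaving out each array in turn gave 17 to 18 probe sets called higher (19 with all arrays), 10 genes in every case and 8 to 9 genes higher relative to neighbours (9), with 0 lower. On plain _at sets alone, which leaves 5 of the 10 genes, gave 4 called higher and 3 higher relative to neighbours; TAP2 then differed by -0.032 (adjusted p = 0.900) and ERAP1 by 0.14. Leaving out dim probe sets gave 3 genes lower relative to neighbours, TAP2 (-0.26), PSMB8 (-0.11) and PSMB9 (-0.20). That setting also removes their dim neighbours, some of them class II genes called lower. Without HLA genes as neighbours 7 were higher and PSMB9 turned to -0.063. With 10 neighbours on each side all 10 were higher, and with 50 it was 8, PSMB9 being lost. The ratio PSMB9 over PSMB6 ran from -0.000376 without parental replicate 2 to 0.034 without WZR6 replicate 1. With the replicate block, 20 probe sets, 10 genes and 9 genes relative to neighbours were higher, and no other count of these genes moved. The labels do not say whether the replicate numbers pair samples, and they were not taken to do so. Cyclic loess, median centring and quantile normalization kept all 10 genes higher, with the median of all genes between -0.01 and 0.06. In the list of region genes outside presentation, 1 or 2 were called lower in 6 alternatives, and 14 higher on plain _at sets alone. Class II genes were lower for 2 after dim sets were left out, 4 with the floor and 3 on plain _at sets. Factors of class I promoters were higher for 4 without parental replicate 2 or 3 and for 2 on plain _at sets. The causes were not tested, beyond the smaller number of genes that the last setting leaves. The arrays give no detection calls, so dim sets such as those of TAP2 limit what can be seen.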
